A study of Mus musculus with 6 samples.

Results

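Genes that make, destroy, carry and sense retinoic acid, a vitamin A derivative that patterns the embryo along its anterior-posterior axis, were examined in embryoid bodies (EBs) with a disrupted *Evx1* gene. The 8 genes were chosen by symbol: *Aldh1a2*, *Cyp26a1*, *Dhrs3*, *Crabp1*, *Crabp2*, *Rara*, *Rarb* and *Rarg*. All 8 were found among 15266 genes with values, and 7 were among the 12891 genes past a low-count filter, *Rarb* being the exception. A pair of lines edited from W9.5 mouse embryonic stem cells (mESCs) was compared by mRNA-seq of D4 EBs (day 4 of differentiation in medium with serum and no LIF), with 3 cultures per line. EVX1-Δfs (Evx1Δfs Clone 14, a single clone) carries small frameshift deletions in the homeodomain region of both *Evx1* alleles, and its antisense non-coding RNA *Evx1as* was left intact. Del#3 (Del3, Evx1/Evx1asΔ2.6kb) carries a deletion of 2.6 kb in the locus of both genes. Both lines lack functional EVX1 by design, and unedited EBs were not analysed here. The lines were differentiated side by side on 3 different days, and a shared replicate number is taken to mark a shared day.

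Retinoic acid is made by oxidation of retinol to retinal and of retinal to retinoic acid. ALDH1A2 catalyses the last step in the early embryo, DHRS3 returns retinal to retinol, and CYP26A1 inactivates retinoic acid. CRABP1 and CRABP2 bind it in the cell, and the receptors RARα, RARβ and RARγ, encoded by *Rara*, *Rarb* and *Rarg*, bind DNA with an RXR partner. In the gastrulating mouse embryo *Cyp26a1* and *Aldh1a2* are both known for expression in mesoderm.

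The targeted genes set the lines apart. *Evx1* had 2582 to 4023 reads per library in EVX1-Δfs and 28 to 48 in Del#3, and *Evx1as* (5730457N03Rik) had 571 to 879 and 21 to 30. Libraries held 9024579 to 15699124 reads on listed genes. Of 9123 genes with a mean of at least 100 normalized counts (reads divided by a size factor per library), 181 (1.98%) were at least 1 log2 unit below every other library in EVX1-Δfs replicate 2 and 57 (0.625%) in EVX1-Δfs replicate 3, while 71 (0.778%) were that far above in Del#3 replicate 1. Normalized counts summed over 9 streak and mesoderm markers were 11600 to 13321 in EVX1-Δfs and 12003 to 14409 in Del#3, and over 6 pluripotency markers 7827 to 8674 in EVX1-Δfs and 5653 to 9351 in Del#3. The pluripotency sum was mostly *Pou5f1*, with a mean of 6522. *Zfp42* and *Dppa3* were lower in Del#3 without overlap, as were 1.8% of all genes tested. These 3 genes are named after their values were seen, and the lines overlapped in the other pluripotency markers. The sums over 4 definitive endoderm markers were 3243 to 4295 in EVX1-Δfs and 2627 to 3984 in Del#3, and over 8 visceral and primitive endoderm markers 1283 to 1966 in EVX1-Δfs and 1317 to 1871 in Del#3, with *Afp* and *Amn* under a mean of 10. Of 6 neurectoderm markers 5 had values, summing to 422 to 648 in EVX1-Δfs and 378 to 638 in Del#3, with *Sox1*, *Pax6* and *Zic1* under a mean of 10. By limma, no marker tested passed an adjusted p-value of 0.05 between lines or between replicate numbers, and the part of cell makeup in the values below was not tested. In bulk EBs, fewer cells of a type and less RNA per cell cannot be told apart.

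Retinoic acid receptors bind repeats of a short half-site, and *Cyp26a1* and *Rarb* are textbook targets of the pathway itself, so their promoters are shown. RefSeq promoter windows (250 bases before to 50 after a start, table build GRCm38.p6) were held for 7 of the 8 genes, 13 windows in all, and each matched NCBIM37 (mm9) at 1 place. Cores of the half-site, GTTCA and GGTCA, which leave out its first base, were searched on both strands. The bases between cores therefore include the first base of the second half-site. Patterns had 6 bases between cores (DR5: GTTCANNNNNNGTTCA, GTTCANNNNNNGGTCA, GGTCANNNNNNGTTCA or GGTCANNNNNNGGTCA) or 3 (DR2: GTTCANNNGTTCA, GTTCANNNGGTCA, GGTCANNNGTTCA or GGTCANNNGGTCA). DR5 was present in 1 window of *Cyp26a1* and 1 of *Rarb*, and neither was present in the other 11. Of all 32841 RefSeq windows of this length, 0.247% held DR5 and 0.399% held DR2. The windows run 5′ to 3′ on the strand of the gene, with DR5 in capitals, and lie at chr19:37772048-37772347 on the plus strand for *Cyp26a1* and chr14:17407941-17408240 on the minus strand for *Rarb* (NCBIM37).
Cyp26a1: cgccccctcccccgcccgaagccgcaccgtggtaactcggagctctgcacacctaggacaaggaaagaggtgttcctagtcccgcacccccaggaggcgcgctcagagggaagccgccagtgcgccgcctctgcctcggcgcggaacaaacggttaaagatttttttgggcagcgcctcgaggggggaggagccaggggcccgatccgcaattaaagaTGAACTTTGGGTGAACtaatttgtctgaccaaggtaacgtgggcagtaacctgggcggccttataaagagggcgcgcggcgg
Rarb: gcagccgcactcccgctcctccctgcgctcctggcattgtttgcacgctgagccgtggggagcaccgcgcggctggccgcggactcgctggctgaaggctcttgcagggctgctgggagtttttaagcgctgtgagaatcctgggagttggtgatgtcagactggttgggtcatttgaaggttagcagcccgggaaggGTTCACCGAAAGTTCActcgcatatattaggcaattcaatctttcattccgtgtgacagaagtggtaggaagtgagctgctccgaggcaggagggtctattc
In *Cyp26a1* the repeat reads GTTCACCCAAAGTTCA on the opposite strand, 32 to 17 bases before the start. In *Rarb* it reads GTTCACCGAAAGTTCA on the gene's strand, 52 to 37 bases before the start. These matches describe letters and are not evidence of binding.

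Levels were compared between genes as RPKM, reads scaled to exon length and to library depth. The breakdown enzyme and 1 binding protein were highest, *Cyp26a1* at 45.7 ± 9.86 RPKM and *Crabp1* at 43.5 ± 6.51 RPKM (SD, n = 6 libraries), percentiles 88.3 and 87.8 of tested genes. Their ranges, 36.9 to 64.8 and 35.8 to 50.7 RPKM, overlapped. *Rarg* (10.6 ± 3.01 RPKM), *Crabp2* (9.14 ± 1.76 RPKM) and *Rara* (6.71 ± 2.31 RPKM; SD, n = 6) followed, each overlapping the next, around the median of 6.43 RPKM over tested genes. *Dhrs3* (1.19 ± 0.545 RPKM) and *Aldh1a2* (0.675 ± 0.369 RPKM; SD, n = 6) were lower and overlapped each other. *Rarb* was lowest at 0.102 ± 0.0755 RPKM (SD, n = 6). No library overlapped between the neighbours *Crabp1* and *Rarg*, *Rara* and *Dhrs3*, or *Aldh1a2* and *Rarb*.

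**Figure D1:**
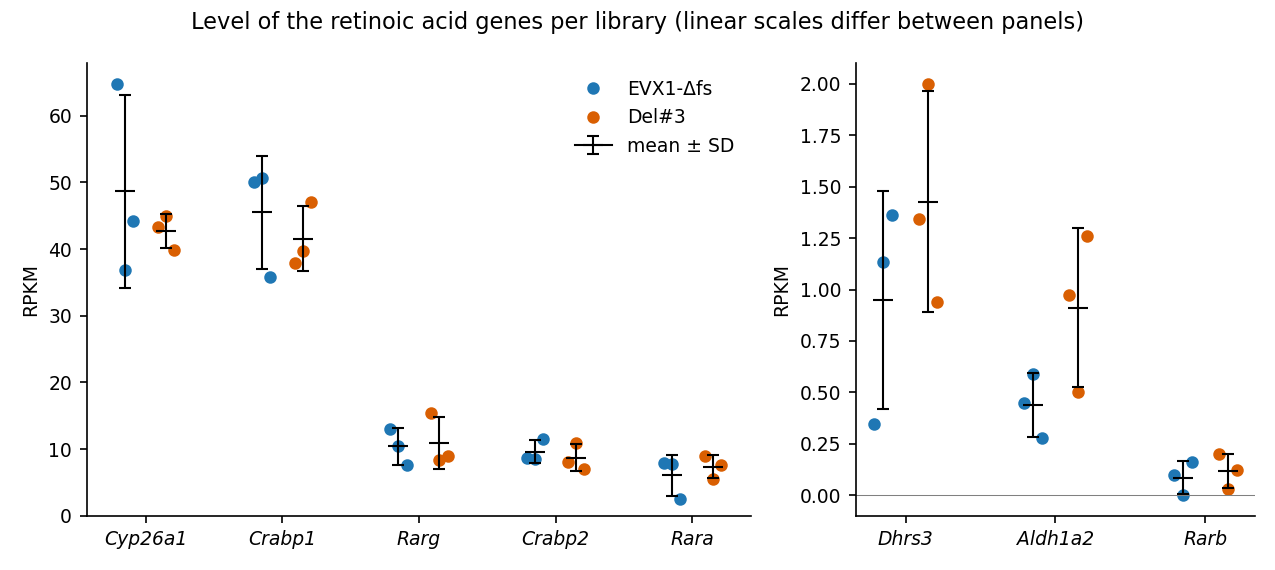
RPKM of the 8 genes (vertical axes, linear, different scales in the panels) in each library of EVX1-Δfs (blue) and Del#3 (orange), with the mean ± SD of 3 libraries per line in black. The lowest library of *Crabp1* was at 35.8 RPKM, and the highest of *Dhrs3* was at 2.00 RPKM.

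*Aldh1a2*, the synthesis enzyme gene (ENSMUSG00000013584.5, chromosome 9 from 71063596 to 71144050 on the plus strand, NCBIM37 as for all genes here), rested on 6 to 28 reads per library. Its 3 EVX1-Δfs libraries, in the order of their replicate numbers as in all such lists here, held 10.6, 14.1 and 7.09 normalized counts, and its 3 Del#3 libraries 21.5, 12.8 and 29.9. Del#3 replicate 2 lay below EVX1-Δfs replicate 2, so the lines overlapped, and the other 2 Del#3 libraries were above all of EVX1-Δfs. The log2 fold change (Del#3 against EVX1-Δfs, here and below) of *Aldh1a2* was 0.92 (SE 0.50, 95% interval -0.18 to 2.02, adjusted p = 1.00 by limma), the largest of the 7 tested genes. That of *Dhrs3* was larger without EVX1-Δfs replicate 3 (1.07 against 0.69) and without Del#3 replicate 3 (0.94 against 0.65). Counting error alone was 40.8% of the value at the fewest reads.

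*Cyp26a1*, the breakdown enzyme gene (ENSMUSG00000024987.5, chromosome 19 from 37772298 to 37776018 on the plus strand), had 590 to 1804 reads per library. Normalized counts were 1191, 691 and 885 for EVX1-Δfs against 748, 899.9 and 740.1 for Del#3. Both extremes were EVX1-Δfs libraries, and all of Del#3 lay between them. The log2 fold change of *Cyp26a1* was -0.18 (SE 0.26, 95% interval -0.75 to 0.39, adjusted p = 1.00 by limma), and without EVX1-Δfs replicate 1, the highest library, it was 0.019. The related breakdown genes were under the filter, *Cyp26b1* with 26 reads in EVX1-Δfs and 38 in Del#3, and *Cyp26c1* with 7 and 15. Values of *Cyp26c1* did not overlap (1.98, 1.17 and 3.54 normalized counts for EVX1-Δfs, 3.98, 6.97 and 4.27 for Del#3), on 1 to 6 reads per library. Of all genes past the filter, 3.51% did not overlap either.

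*Dhrs3*, the retinal reductase gene (ENSMUSG00000066026.7, chromosome 4 from 144482730 to 144518112 on the plus strand), had 16 to 57 reads per library. The EVX1-Δfs libraries held 10.6, 35.2 and 44.9 normalized counts and those of Del#3 38.3, 66.2 and 28.8. EVX1-Δfs replicate 1 was lowest and Del#3 replicate 2 highest, 6.27-fold apart, and the lines overlapped. The log2 fold change of *Dhrs3* was 0.68 (SE 0.56, 95% interval -0.56 to 1.92, adjusted p = 1.00 by limma). With each library left out in turn it ranged from 0.073 (without EVX1-Δfs replicate 1) to 1.07 (without EVX1-Δfs replicate 3).

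Neither binding protein gene differed between the lines by the test. *Crabp1* (ENSMUSG00000032291.8, chromosome 9 from 54612555 to 54620917 on the plus strand) had normalized counts of 416, 430.1 and 324 among EVX1-Δfs EBs, compared with 296, 360.0 and 395 among Del#3 EBs. Its highest library was 1.45 times its lowest, the narrowest range of the 7 tested genes, and its log2 fold change was -0.15 (SE 0.25, 95% interval -0.71 to 0.41, adjusted p = 1.00 by limma). *Crabp2* (ENSMUSG00000004885.5, chromosome 3 from 87752588 to 87757298 on the plus strand) stood at 118, 119.5 and 172 for EVX1-Δfs and at 104, 164 and 97.2 for Del#3. The highest library of *Crabp2* was 1.77 times its lowest, compared with 1.72 times for *Cyp26a1*. The lines overlapped in both binding protein genes, and the log2 fold change of *Crabp2* was -0.18 (SE 0.32, 95% interval -0.90 to 0.53, adjusted p = 1.00 by limma). With each library left out in turn, *Crabp1* ranged from -0.28 (without EVX1-Δfs replicate 3) to -0.037 (without Del#3 replicate 1) and *Crabp2* from -0.41 (without Del#3 replicate 2) to -0.0045 (without EVX1-Δfs replicate 3). *Fabp5*, encoding another carrier of retinoic acid, averaged 1402 ± 298 normalized counts for EVX1-Δfs and 1198 ± 130.0 for Del#3 (SD, n = 3).

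Of the receptors, *Rarg* and *Rara* were well covered and *Rarb* was near 0. *Rarg* (ENSMUSG00000001288.8, chromosome 15 from 102065369 to 102087948 on the minus strand) was at 556, 456 and 352 normalized counts over the EVX1-Δfs EBs and at 615, 387 and 388 over the Del#3 EBs. Replicate 1 was highest in each line, the lines overlapped, and the log2 fold change of *Rarg* was 0.015 (SE 0.29, 95% interval -0.62 to 0.65, adjusted p = 1.00 by limma). *Rara* (ENSMUSG00000037992.9, chromosome 11 from 98789132 to 98836256 on the plus strand, with a U6 snRNA gene annotated inside it) was at 371, 376 and 131 normalized counts over EVX1-Δfs and 396, 287 and 367 over Del#3. EVX1-Δfs replicate 3 lay far below the other 5 libraries, which overlapped. The log2 fold change of *Rara* was 0.39 (SE 0.40, 95% interval -0.49 to 1.27, adjusted p = 1.00 by limma), and -0.11 without that library. *Rarb* (ENSMUSG00000017491.7, chromosome 14 from 17263356 to 17651381 on the minus strand) had 3.30, 0 and 5.91 normalized counts over EVX1-Δfs and 6.38, 1.16 and 4.27 over Del#3, from 10 and 13 reads in all, and the count of 0 allows up to 3 reads, or 0.332 RPM. A difference in *Rarb* was not detectable at this depth. Its partner genes *Rxra* and *Rxrb* averaged 723 ± 208 and 687 ± 57.0 normalized counts for EVX1-Δfs against 737 ± 117 and 720.0 ± 37.6 for Del#3 (SD, n = 3).

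This comparison asked whether loss of *Evx1as* together with EVX1 changes more than loss of EVX1. By limma, 0 of the 7 tested genes passed an adjusted p-value of 0.05 (0.0155% of all genes tested did) and 0 an unadjusted one (1.03% did). With the replicate number as a block both counts were again 0, beside 0.0233% and 4.62% of all genes. DESeq2's Wald test and edgeR's quasi-likelihood test on the recovered reads called 0 as well, beside 0.0233% and 0.0155% of all genes. The lines overlapped in all 8 genes, while 3.51% of all genes tested did not overlap, 1.71% higher in Del#3 and 1.8% lower. Exact permutation tests of single genes (two-sided, smallest possible p = 0.1) gave their lowest p, 0.2, for *Aldh1a2*. The median log2 fold change was 0.015 over the 7 genes and 0.0022 over all genes tested. For 4 of the 7 (*Cyp26a1*, *Crabp1*, *Crabp2* and *Rarg*) the 95% interval stayed inside 2-fold both ways, as for 61.1% of all genes tested. For *Aldh1a2*, *Dhrs3* and *Rara* it reached past 2-fold higher in Del#3.

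**Figure D2:**
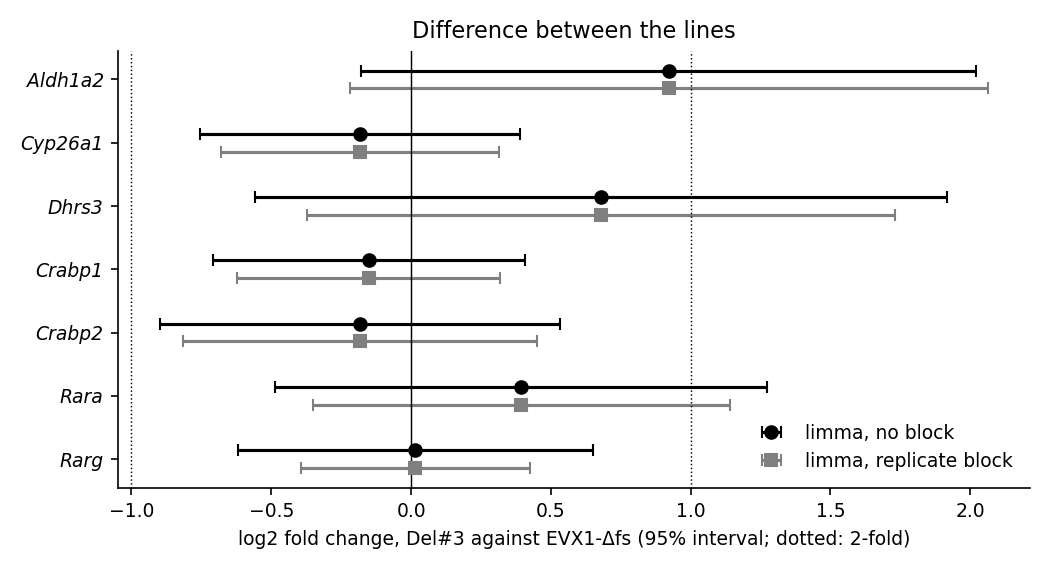
Log2 fold change of Del#3 against EVX1-Δfs (horizontal axis) for the 7 tested genes, with 95% intervals by limma without (black) and with (grey) the replicate number as a block, and dotted lines at 2-fold. All intervals include 0, and those of *Aldh1a2*, *Dhrs3* and *Rara* reach past 2-fold both without and with the block.

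Other retinoid genes came from a list of 31 pathway genes (24 with values, 21 tested) and a list of 19 genes known to respond to retinoic acid (15 with values, 13 tested). Between the lines 0 of these 34 rose and 0 fell by limma (beside 0.0155% of all genes tested called), and 0 had an unadjusted p-value under 0.05 (beside 1.03%). DESeq2 and edgeR called 0 of them, beside 0.0233% and 0.0155% of all genes tested. Median log2 fold changes were 0.069 for pathway genes and -0.049 for responsive genes. *Stra6*, encoding the receptor that takes up retinol, averaged 41.9 ± 14.5 normalized counts for EVX1-Δfs and 42.6 ± 4.62 for Del#3, and *Rdh10*, encoding a main retinol oxidase of the embryo, 32.9 ± 10.1 and 32.4 ± 9.98 (same unit and order, SD, n = 3). Neither passed the test between the lines. *Rdh14*, encoding another retinol dehydrogenase, was the 1 gene of the 34 without overlap (beside 3.51% of all genes tested), with 48.8, 46.9 and 44.9 normalized counts for EVX1-Δfs and 38.3, 23.2 and 31.0 for Del#3. The log2 fold change of *Rdh14* was -0.62 (SE 0.36, 95% interval -1.42 to 0.19, adjusted p = 1.00 by limma). *Aldh1a3*, encoding another retinal oxidase, averaged 22.7 ± 2.82 normalized counts for EVX1-Δfs and 26.1 ± 6.03 for Del#3 (SD, n = 3).

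Among responsive genes *Hoxb2*, a hindbrain patterning gene named here after its values were seen, had the largest log2 fold change, 0.87 (SE 0.43, 95% interval -0.097 to 1.83, adjusted p = 1.00 by limma). Its normalized counts of 60.1, 21.1 and 31.9 for EVX1-Δfs and 49.4, 67.3 and 76.9 for Del#3 overlapped. *Hoxb1*, an early target of retinoic acid and also named after its values were seen, was low in both lines, averaging 17.2 ± 7.39 normalized counts for EVX1-Δfs against 15.9 ± 3.47 for Del#3 (SD, n = 3). *Tgm2*, encoding a transglutaminase, averaged 355 ± 97.4 and 384 ± 127 (same unit and order).

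**Figure D3:**
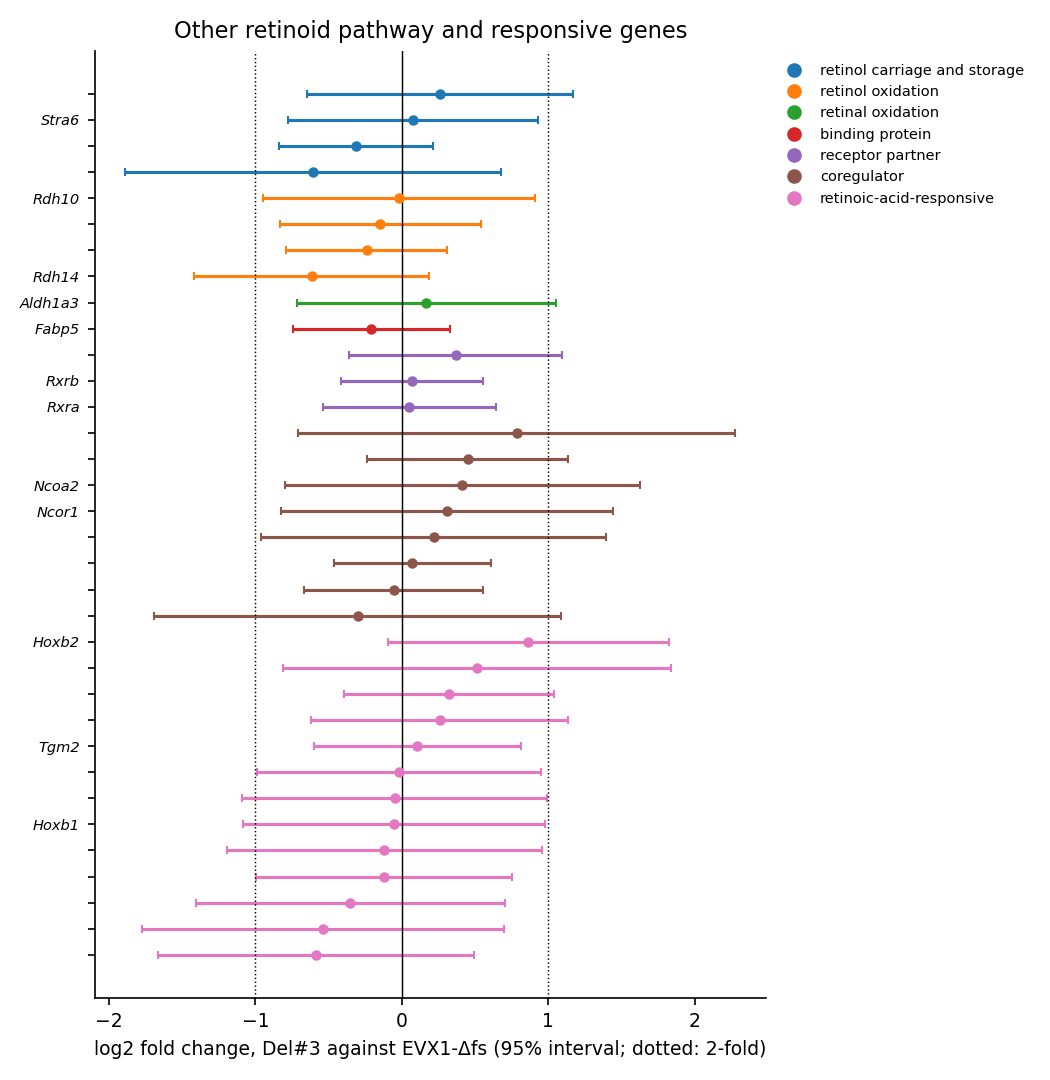
Log2 fold change of Del#3 against EVX1-Δfs with 95% intervals by limma (horizontal axis) for the 34 tested pathway and responsive genes, coloured by role, with dotted lines at 2-fold and labels for genes named in the text. Every interval includes 0, and the median was 0.016.

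Variation was split per gene into a part between replicate numbers, with 2 of the 5 degrees of freedom (40%), and a part between lines, with 1 (20%). Over all genes tested, a median of 64.4% of the squared deviations on the log2 scale fell between replicate numbers and 6.70% between lines. *Rarg* was divided most by replicate number among the tested members, with 90.6% there and 0.0699% between lines. *Aldh1a2* was the reverse, with 1.29% and 53.8%. *Dhrs3* had 41.3% between replicate numbers and *Rara* 36.8%, close to the share of degrees of freedom, while *Cyp26a1*, *Crabp1* and *Crabp2* had 13.9% to 19.9%.

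By limma's F test with the line as covariate, 0 of the 7 genes differed between replicate numbers at an adjusted p-value under 0.05, beside 4.24% of all genes tested. Without adjustment 1 passed, *Rarg*, beside 27.7%. The replicate number means of *Rarg* were up to 0.66 apart on the log2 scale (SE of a difference 0.22, adjusted p = 0.161 by limma), replicate 1 being highest and replicate 3 lowest. Such largest differences had a median of 0.33 over the 7 genes and 0.58 over all genes tested. Without Del#3 replicate 3, *Rara* and *Dhrs3* passed (adjusted p = 0.00284 and 0.0218 by limma), as did 24.2% of all genes tested, in a fit that assumes the lone library of replicate 3 to vary like the others.

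**Figure D4:**
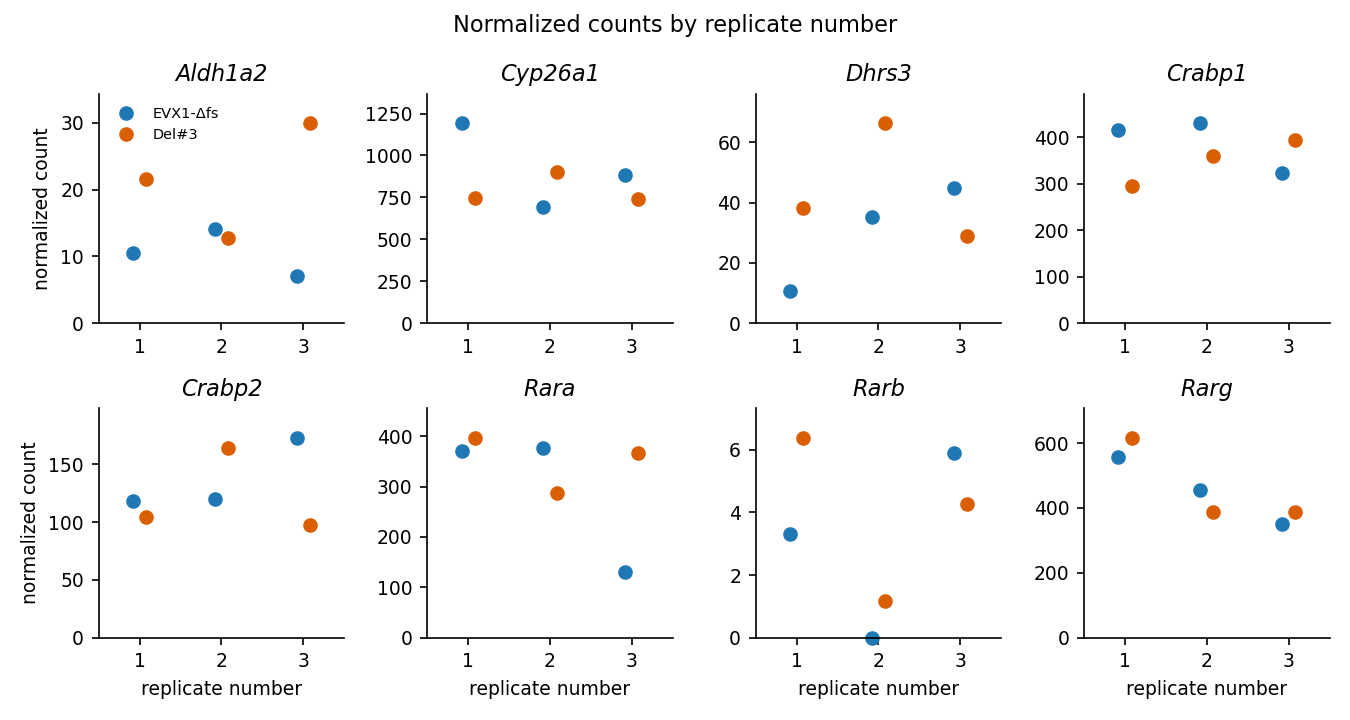
Normalized counts (vertical axes, linear from 0) of the 8 genes by replicate number (horizontal axes), 1 point per library, EVX1-Δfs in blue and Del#3 in orange. In all 8 genes the higher line changes between numbers, in *Rarg* libraries of a number lie close together, and in *Rara* 1 library, at 131, lies apart.

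Of the 34 pathway and responsive genes, 3 differed between replicate numbers by the same F test, beside 4.24% of all genes tested, and 11 passed without adjustment, beside 27.7%. Of the 3, 2 are described here, *Ncor1* and *Ncoa2*, encoding a corepressor and a coactivator of nuclear receptors. *Ncor1* had 1156 and 1429 in replicate 1, 452 and 372 in replicate 2, and 377 and 707 in replicate 3 (normalized counts, EVX1-Δfs then Del#3, adjusted p = 0.0373 by limma). *Ncoa2* had 339 and 456 in replicate 1, 123 and 107 in replicate 2, and 111 and 225 in replicate 3 (adjusted p = 0.0412 by limma). Both calls were lost with TMM factors (adjusted p = 0.0526 and 0.0571 by limma), with total reads (0.0594 and 0.0641), without EVX1-Δfs replicate 1 (0.0597 and 0.0835) and without Del#3 replicate 1 (0.0554 and 0.0922). Both replicate 1 libraries were above the other 4 in both genes. They were also the deepest of their lines, and genes with coding transcripts of at least 4952 bases deviated there by a median of 0.13 (EVX1-Δfs) and 0.32 (Del#3) on the log2 scale, against -0.22 to 0.12 in the other 4 libraries. The longest coding transcripts of *Ncor1* and *Ncoa2* have 9037 and 8171 bases, and the part of depth and length was not tested.

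For *Rara*, 1 library set the direction between the lines. In EVX1-Δfs replicate 3 its log2 value minus its mean was -1.20, and in the other libraries it was -0.076 to 0.39. EVX1-Δfs replicate 3 was also the lone library of replicate 3 in the fit without Del#3 replicate 3. Of 9118 genes with a mean of at least 100 normalized counts, *Zdhhc8* and *Mta1* were nearest to *Rara* over the 6 libraries, never departing from its centred log2 values by more than 0.038 and 0.084. The coding transcript of *Rara* is 59.2% GC, and 585 genes within 1 point of it had a median deviation of -0.11 there. The part of this library's quality was not tested.

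**Figure D5:**
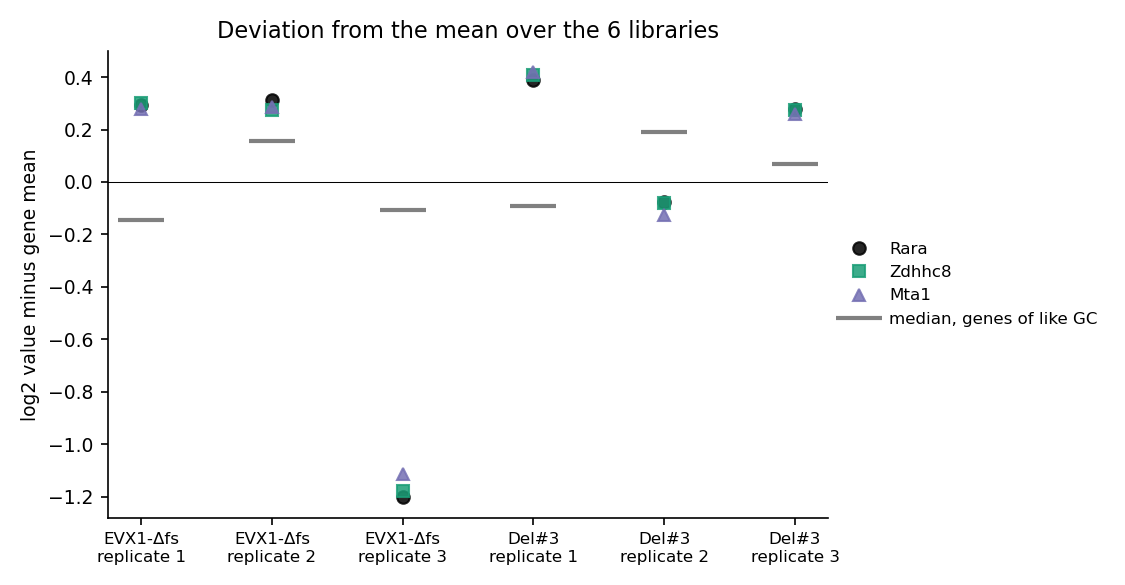
Log2 value minus the gene's mean over the 6 libraries (vertical axis) in each library (horizontal axis) for *Rara* and its nearest genes *Zdhhc8* and *Mta1*, with grey bars for the median of genes within 1 GC point of *Rara*. In EVX1-Δfs replicate 3 *Rara* is at -1.20 and *Zdhhc8* at -1.18, while the grey bar is at -0.11.

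Other widely ranging genes had looser neighbours. For *Dhrs3*, whose log2 values spanned 2.54, they were *Grin1*, encoding a glutamate receptor subunit, and *Tnfrsf1b*, encoding a TNF receptor, with largest departures of 0.33 and 0.52. For *Aldh1a2*, spanning 1.93, they were *Nrbp2* and *Bcl9l* with 0.39 and 0.43. Counting error at the fewest reads was 25.0% for *Dhrs3*, against 4.12% for *Cyp26a1*.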

How the data were processed

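mRNA-seq of D4 EBs was analysed in 6 libraries, 3 of EVX1-Δfs and 3 of Del#3. Reads came from an Ion Proton. According to the methods, mapping to mm9 used TopHat2 followed by TMAP, and HTSeq and DESeq2 were run with standard settings. The deposited signal values are gene counts divided by a size factor per library: 100% were whole multiples of the value of 1 read (within 0.01 of a read), so reads were recovered by division. Values were compared by limma 3.58.1 (R 4.3.3) on log2(normalized count + 1), without covariates, after the filterByExpr filter of edgeR 4.0.16 (minimum count 10), with Benjamini-Hochberg adjustment over all genes tested and a threshold of 0.05. Fold changes on that scale understate those of low genes. RPKM used union exons of GENCODE on NCBIM37 (mm9), and 12130 of the 12891 tested genes had a length. The floor of 3 reads covers counting error only. A symbol shared by 2 rows was kept as separate rows.

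Per the labels and the series' design, compared samples were started together, and each of the 3 side-by-side differentiations, called replicates, on its own day. Replicate numbers were therefore taken to pair the lines, although no label gives a library's day. Deviations of same-numbered libraries correlated across genes at 0.74, 0.32 and -0.053.

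Alternatives were DESeq2 1.42.0, edgeR's quasi-likelihood test, the replicate block, pseudocounts of 0.1 and 5, TMM factors, total reads, other filters, the longest transcript and leaving out each library. The fits were tested on simulated data. Genes named were the members, the targeted genes, listed genes past the threshold, up to 4 genes with the most reads per role, and the 2 nearest patterns of the 3 widest members. The text says where a gene was named otherwise, and some listed genes are not reported here. The members and lists were chosen with earlier results of these data known. 12 listed genes were not analysed here, and *Bco1* was matched as *Bcmo1*.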

Additional observations from a re-analysis of the deposited data

How the results depend on the processing

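No alternative called a member, a pathway gene or a responsive gene between the lines, so the block changed no call. The replicate block gave 0 in limma, edgeR and DESeq2, beside 0.0233%, 0.0233% and 0.182% of all genes tested. Each other alternative, and each library left out, also gave 0, beside 0.0131% to 0.0233% of all genes tested. DESeq2 with the block gave no adjusted p for *Aldh1a2* and *Dhrs3*. *Aldh1a2* was higher in Del#3 in every alternative that tested it, at 0.65 to 1.23 on the log2 scale, and was not tested where 10 reads were asked of every library. Directions turned only when a library was left out: *Cyp26a1* was at 0.019 without EVX1-Δfs replicate 1, *Rara* at -0.11 and *Rarg* at -0.16 without EVX1-Δfs replicate 3, and *Rarg* at -0.21 without Del#3 replicate 1. With each library left out, *Cyp26a1* ranged from -0.37 to 0.019, *Rara* from -0.11 to 0.65 and *Rarg* from -0.21 to 0.17. Between replicate numbers, the 3 pathway and responsive genes called became 1 with TMM factors and 1 with total reads (beside 2.59% and 2.46% of all genes tested), and 4 by DESeq2's likelihood ratio test and 3 by edgeR (beside 11.5% and 3.58%). Leaving out 1 library gave 0, 8 and 9 (without EVX1-Δfs replicates 1, 2 and 3, beside 1.5%, 16.9% and 18.3% of all genes tested) and 1, 5 and 12 (without Del#3 replicates 1, 2 and 3, beside 1.62%, 11.1% and 24.2%). Members called there ranged from 0 to 2, the 2 being without Del#3 replicate 3. The cause was not tested. By the longest transcript, *Rarg*, *Crabp2* and *Rara* were at 14.8, 13.0 and 9.07 RPKM, with the order of the 8 genes kept. At the fewest reads, counting error was 40.8% for *Aldh1a2*, 25.0% for *Dhrs3* and 9.49% for *Rara*, and its part in their intervals was not tested.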
